A study of Mus musculus with 26 samples.

Results

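The genes described here are 8 members of the SUMO conjugation machinery in the mouse epididymis and testis: *Sumo3*, the E1 subunits *Sae1* and *Uba2*, the ligases *Pias1*, *Pias2*, *Pias3* and *Pias4*, and the protease *Senp3*. They were chosen by name, as the rows of these symbols among the 23337 genes counted, and all 8 were found. RNA of WT and ArKI males was sequenced from the testis and from 2 segments of the epididymis, the caput and the initial segment (IS), 26 samples in all. Both epididymal segments came from the same 5 mice per genotype and the testes from 3, but which samples share a mouse is not stated, so the tests between segments treat them as independent. In ArKI mice the 2 conserved SUMO acceptor lysines of the androgen receptor are replaced by arginines, a knock-in on the X chromosome carried in every cell, so that only the mutant receptor is present in males. The mice were 3 months old, of a C57Bl/6N; 129 hybrid strain, and the WT controls carried the unaltered receptor. The samples were whole pieces of tissue, in which fewer cells of a type and less RNA per cell cannot be told apart.

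SUMO proteins are small ubiquitin-related modifiers that are joined to lysines of target proteins. A heterodimeric E1 enzyme, made of SAE1 and UBA2, activates the modifier, a conjugating enzyme transfers it, and E3 ligases such as the PIAS proteins help to choose the targets. SENP proteases take SUMO off again. PIAS proteins are also known as coregulators of steroid receptors, the androgen receptor included, and PIAS2 was found early as an androgen receptor-interacting protein of the testis.

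In GRCm38 (mm10) coordinates, *Pias1* lies on the minus strand at chr9:62878368-62987924, *Pias3* on the plus strand at chr3:96696384-96706070 and *Pias4* on the minus strand at chr10:81153266-81167923. *Sumo3* lies at chr10:77606097-77618331 on the plus strand. The E1 genes share a chromosome, *Sae1* at chr7:16320234-16387806 and *Uba2* at chr7:34140688-34169599, both on the minus strand, and *Senp3* lies at chr11:69673115-69682084 on the minus strand. All 8 are protein-coding, and the reads were counted over their exons. *Sumo3* shares 346 exonic bases with another gene model of the same strand, Gm49325, which has no row in the tables, and *Pias3* shares 4 bases with *Nudt17* of the opposite strand.

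*Pias1* and *Pias3* were the ligases whose genotype difference in the caput passed the test, that of *Pias3* only narrowly (adjusted p = 0.042 by edgeR). It did not pass in several other fits, given below. The 2 genes differed in opposite directions between testis and epididymis. The RefSeq promoters of both genes (GRCm38.p6, 250 bases before to 50 after the start, 5′ to 3′ on the strand of the gene) are shown so that these results can be read beside the sequence. Capitals mark the GC box GGGCGG on either strand (CCGCCC).
Pias1, chr9:62980830-62981129, minus strand: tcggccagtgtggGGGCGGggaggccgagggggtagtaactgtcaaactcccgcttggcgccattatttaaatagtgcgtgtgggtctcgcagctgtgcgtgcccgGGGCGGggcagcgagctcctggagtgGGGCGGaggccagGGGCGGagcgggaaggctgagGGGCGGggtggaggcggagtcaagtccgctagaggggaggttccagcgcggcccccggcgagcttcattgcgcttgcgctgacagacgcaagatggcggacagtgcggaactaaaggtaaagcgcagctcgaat
Pias3, chr3:96696125-96696424, plus strand: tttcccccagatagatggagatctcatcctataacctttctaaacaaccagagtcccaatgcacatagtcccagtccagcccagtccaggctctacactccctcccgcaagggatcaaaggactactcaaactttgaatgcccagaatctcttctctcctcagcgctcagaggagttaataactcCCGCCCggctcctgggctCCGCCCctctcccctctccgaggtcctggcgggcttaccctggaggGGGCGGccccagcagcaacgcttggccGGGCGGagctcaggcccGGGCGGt
Pias3, chr3:96696826-96697125, plus strand: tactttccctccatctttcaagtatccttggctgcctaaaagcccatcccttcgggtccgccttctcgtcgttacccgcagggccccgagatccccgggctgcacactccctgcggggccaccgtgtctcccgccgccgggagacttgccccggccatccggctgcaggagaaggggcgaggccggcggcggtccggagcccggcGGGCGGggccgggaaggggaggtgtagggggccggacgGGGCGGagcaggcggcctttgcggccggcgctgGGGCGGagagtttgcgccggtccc

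The RefSeq start of *Pias1* used here lies inside the gene model given above, whose 5′ end is that of another transcript. The *Pias1* window held 5 GC boxes and 28 CpG, with a GC content of 66.3%. The windows at the 2 starts of *Pias3* held 5 and 3 GC boxes, 13 and 33 CpG, and 60.0% and 72.7% GC. Among all 32544 promoter windows of the same length, 35.9% held a GC box, the median GC content was 53.0% and the median number of CpG was 7. The androgen response element hexamer TGTTCT, searched on both strands (as AGAACA on the other), which 18.9% of all windows hold, and the palindromic cyclic AMP response element TGACGTCA, which 1.801% hold, were in none of these 3 windows, so no motif overlapped another.

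The samples held between 4125768 and 21376604 counts, with the caput sample of ArKI replicate 2 the shallowest. The members had at least 73 counts in every sample, and all 8 passed the filter on low counts in every comparison. Levels are given in CPM (a gene's counts as a share of the library, scaled by TMM), and between genes only in CPM per kilobase of exon. Tests are edgeR's quasi-likelihood test over all genes passing the filter, with Benjamini-Hochberg adjustment, and a gene was called at an adjusted p below 0.05. Where groups are said not to overlap, the share of all genes with such groups was not counted. No such separation is therefore read as particular to these genes. Testis libraries formed 1 sequencing batch and the epididymal libraries the other, so tissue and batch cannot be told apart where the testis is compared with the epididymis. The tissue labels were checked against markers. The summed level of 9 epididymal principal cell genes lay between 55332 and 105109 CPM in the epididymal samples and between 300.4 and 343 CPM in the testis, and that of 12 late spermatid and sperm genes between 26509 and 32790 CPM in the testis and between 2.40 and 377 CPM in the epididymis.

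In the WT IS, the E1 subunits and *Sumo3* stood highest of the 8 per kilobase and *Pias4* lowest. *Sae1* was at 40.6 ± 2.88 CPM per kilobase (SD, n = 5), *Sumo3* at 37.2 ± 1.27, *Uba2* at 36.8 ± 1.70, *Pias2* at 20.9 ± 0.99, *Senp3* at 20.2 ± 0.58, *Pias1* at 11.4 ± 0.47, *Pias3* at 8.58 ± 0.67 and *Pias4* at 5.82 ± 0.67. *Sumo3* and *Uba2* differed by less than the SD of either, and *Pias2* and *Senp3* by less than the SD of *Pias2*, so the order within these pairs does not exceed the spread. In the WT caput the order opened with *Uba2* at 44.7 ± 1.86 and *Sumo3* at 30.6 ± 0.73, and *Pias4* was again last. In the WT testis *Pias2* led with 202 ± 8.24 CPM per kilobase (SD, n = 3), above *Uba2* with 64.9 ± 0.32, *Pias4* with 61.9 ± 3.59 and *Pias1* with 47.4 ± 3.44, and *Pias3* was last with 3.21 ± 0.28. *Uba2* and *Pias4* differed there by less than the SD of *Pias4*. The order depended on the length used: with the shortest matching transcript in place of all exons, *Sumo3* came first in both epididymal segments.

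**Figure D1:**
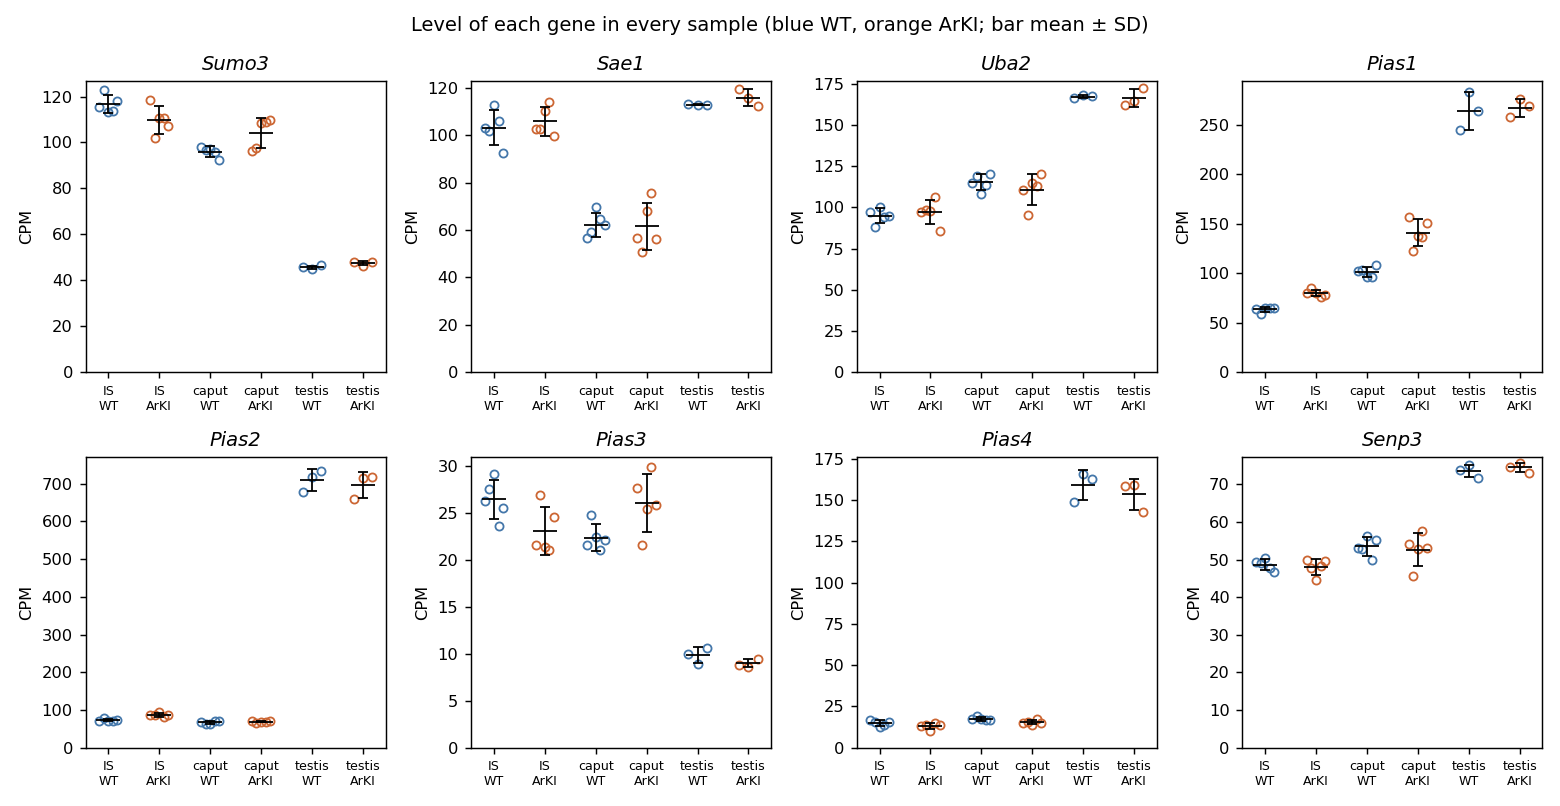
Level of each of the 8 genes in CPM (vertical axis, from 0) in each of the 26 samples, by tissue and genotype (horizontal axis); circles are samples, blue for WT and orange for ArKI, and bars the mean ± SD. *Pias2* and *Pias4* stand far higher in the testis, *Sumo3* and *Pias3* lower, and *Pias1* is higher in ArKI than in WT in the IS and the caput.

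The first comparison asked how the machinery differs between the tissues of WT mice. All 8 genes differed between testis and IS, 6 higher and 2 lower in the testis, where 91.9% of all 16402 genes tested were called, and all 8 between testis and caput (92.0% of all genes). Against the IS, the ligase genes *Pias4*, *Pias2* and *Pias1* had the largest rises in the testis and *Pias3* and *Sumo3* fell. The median size of the log2 difference between testis and IS was 1.29 over the 8 genes and 1.85 over all genes. Counts and shares this close to the background show nothing particular to the 8 genes.

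*Pias2* (chr18:77065208-77153800, plus strand) was at 72.0, 79.4, 70.8, 71.5 and 73.2 CPM in the WT IS, at 67.3, 63.4, 63.7, 70.5 and 69.9 CPM in the WT caput, and at 677, 717 and 733 CPM in the WT testis. The testis samples stood apart from all epididymal samples. The testis was 3.37 ± 0.05 above the IS on the log2 scale (SE; 10.3-fold; adjusted p = 2.5e-25) and 3.49 ± 0.05 above the caput (11.2-fold; adjusted p = 1.4e-25).

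*Pias4* was at 16.9, 15.7, 12.6, 13.8 and 15.8 CPM in the WT IS, at 17.7, 19.4, 17.1, 16.9 and 16.6 CPM in the WT caput, and at 148, 166 and 163 CPM in the WT testis. The groups of testis and epididymis again did not overlap, with log2 differences of 3.50 ± 0.07 from the IS (11.3-fold; adjusted p = 6.3e-23) and 3.26 ± 0.07 from the caput (9.60-fold; adjusted p = 1.4e-22). *Pias1*, whose product is a ligase known for its part in interferon and STAT signalling, was at 245, 283 and 264 CPM in the WT testis, against 58.9 to 65.2 CPM in the IS and 96.1 to 108 CPM in the caput. It differed by 2.15 ± 0.06 (4.43-fold) and 1.47 ± 0.05 (2.76-fold) on the log2 scale. *Pias3* went the other way: 10.01, 8.96 and 10.6 CPM in the WT testis against 23.6 to 29.1 CPM in the IS and 21.01 to 24.7 CPM in the caput. Its log2 difference was -1.32 ± 0.10 from the IS and -1.09 ± 0.10 from the caput.

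*Sumo3*, the modifier itself, was at 45.7, 45.1 and 46.4 CPM in the WT testis, at 113 to 123 CPM in the IS and at 92.2 to 98.0 CPM in the caput, with log2 differences of the testis of -1.26 ± 0.05 (0.42-fold) and -0.98 ± 0.05 (0.51-fold). *Uba2* and *Senp3* exceeded their IS level in the testis by 0.91 ± 0.05 and 0.69 ± 0.06, and their caput level by 0.62 ± 0.05 and 0.54 ± 0.05. *Sae1* was 0.94 ± 0.06 above the caput but only 0.23 ± 0.06 above the IS (adjusted p = 0.0018), a difference that rests on the scaling. The median of all genes between WT testis and IS was 0.19 with TMM, 0.30 with RLE factors, -0.22 with library size only and -0.29 with upper-quartile factors. With the last 2 scalings *Sae1* was lower in the testis, by log2 differences of -0.18 (adjusted p = 0.0093) and -0.26 (adjusted p = 0.00053). Without the caput sample of WT replicate 4, which takes part in the shared spread and scaling, its difference was 0.13 (adjusted p = 0.052), and with 3 other choices of genes or samples in the fit it was 0.08 to 0.13 and not called. Relative to the median of all genes, *Sae1* was at 0.03, *Pias4* at 3.30 to 3.31, *Pias2* at 3.17, *Pias1* at 1.95 to 1.96, *Uba2* at 0.72, *Senp3* at 0.50, *Sumo3* at -1.45 and *Pias3* at -1.52 under all 4 scalings. A change of scaling moves every gene by nearly the same amount. That these relative values held was thus fixed in advance and tests no call. The sizes of the smaller rises also moved with the scaling. Over the 4 scalings, *Pias1* between testis and caput was at 0.97 to 1.59. *Uba2* between testis and IS was at 0.43 to 1.02 and *Senp3* at 0.21 to 0.80. Between testis and caput *Sae1* was at 0.44 to 1.06, *Uba2* at 0.12 to 0.74 and *Senp3* at 0.04 (upper-quartile factors, adjusted p = 0.44) to 0.66, and *Sumo3* was at -1.48 to -0.87 and *Pias3* at -1.59 to -0.98. Relative to the median of all genes, these 5 were at 0.78 to 0.79, 0.46 to 0.47, 0.38 to 0.39, -1.14 and -1.25 between testis and caput.

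**Figure D2:**
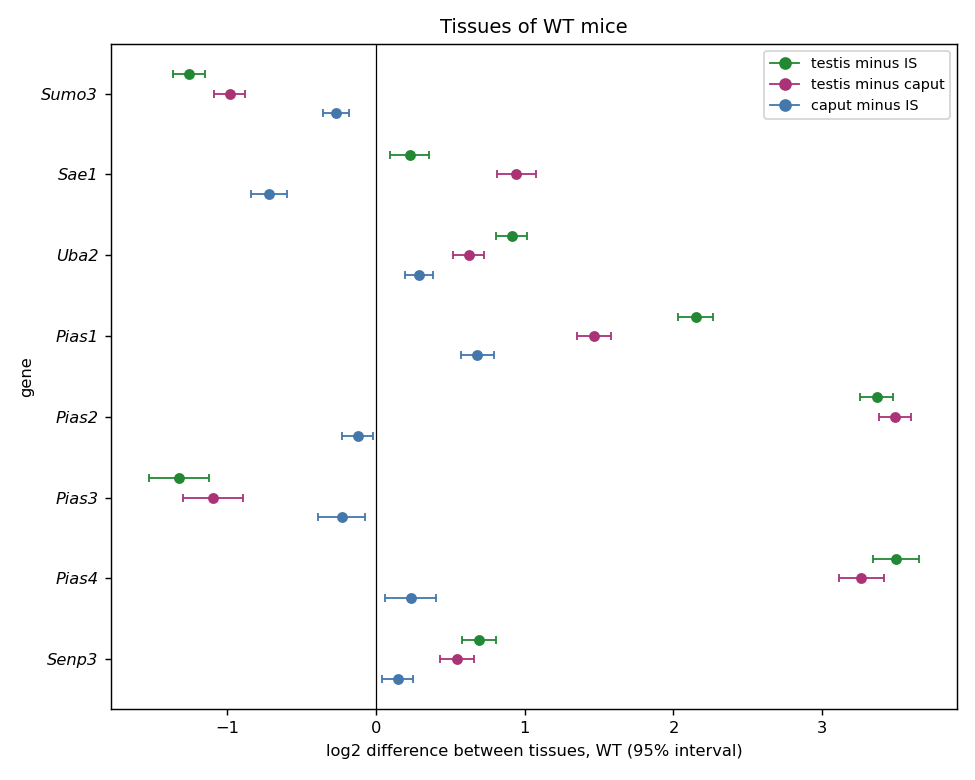
Log2 differences between WT tissues (horizontal axis) for the 8 genes (vertical axis), with 95% intervals; green is testis minus IS, purple testis minus caput, blue caput minus IS, and every point is filled because each difference was called. The testis differences run from -1.32 for *Pias3* to 3.50 for *Pias4*, and the 2 epididymal segments differ by less than 1.

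The 2 epididymal segments differed less. Between WT caput and WT IS all 8 genes were called, 4 higher and 4 lower in the caput, where 64.4% of all genes were called. The largest differences were those of *Sae1*, at 56.5, 59.1, 69.6, 64.5 and 62.0 CPM in the caput against 103, 102, 113, 106 and 92.5 CPM in the IS, and of *Pias1*. The *Sae1* groups did not overlap, and the log2 difference was -0.72 ± 0.06 (adjusted p = 1.5e-10). *Pias1* rose by 0.68 ± 0.05 (adjusted p = 6.7e-11) and *Uba2* by 0.29 ± 0.05, and *Sumo3* fell by 0.27 on the log2 scale, all with groups that did not overlap. *Pias4* was at 0.23 ± 0.08, *Senp3* at 0.15 ± 0.05, *Pias3* at -0.23 ± 0.08 and *Pias2* at -0.12 ± 0.05. The call of *Pias2* was lost with upper-quartile factors (adjusted p = 0.059) and that of *Senp3* with every gene of at least 1 count (0.051). These calls and that of *Pias4* were also lost when certain samples were left out. For *Pias2* these were WT IS replicate 2 (-0.10) and WT caput replicates 2 (-0.11) and 3 (-0.12). For *Pias4* they were WT IS replicates 3 (0.18) and 4 (0.20) and WT caput replicate 2 (0.19). For *Senp3* they were WT IS replicate 5 (0.12) and WT caput replicates 3 (0.12) and 5 (0.13).

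The E1 enzyme is a dimer, and its 2 subunits moved apart between segments. The ratio of *Sae1* to *Uba2* in CPM per kilobase was 1.10 ± 0.07 in the WT IS, 0.55 ± 0.06 in the WT caput (SD, n = 5) and 0.684 ± 0.00394 in the WT testis (SD, n = 3). Each of the 5 IS samples had a ratio between 0.99 and 1.17, above the range of the caput, 0.50 to 0.65. In ArKI mice the ratios were 1.11 ± 0.05, 0.56 ± 0.08 and 0.71 ± 0.04. The absolute ratio depends on the gene lengths used, and with the shortest transcripts it was 2.24 in the WT IS and 1.12 in the WT caput.

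The comparison of ArKI with WT asked whether loss of the SUMO sites of the receptor goes with a change in the machinery. In the IS, *Pias1* and *Pias2* rose, so that 2 of the 8 genes were called, both higher, where 29.6% of all 13434 genes tested were called. The median size of the log2 difference was 0.13 over the 8 genes and 0.15 over all genes. The 2 of 8 is no more than the background.

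*Pias1* was at 79.5, 85.4, 80.4, 76.3 and 78.2 CPM in the ArKI IS and at 63.9, 58.9, 64.7, 65.0 and 65.2 CPM in the WT IS. All 5 ArKI samples stood above all 5 WT samples. The log2 difference was 0.34 ± 0.05 (SE; 1.26-fold; adjusted p = 3.2e-05). *Pias2* was at 88.0, 85.8, 95.4, 81.1 and 87.3 CPM in the ArKI IS, again with every sample above the WT samples (70.8 to 79.4 CPM), and its log2 difference was 0.26 ± 0.05 (1.20-fold; adjusted p = 0.00072). Both calls held in each fit with a sample left out, with log2 differences from 0.31 to 0.35 for *Pias1* and from 0.23 to 0.28 for *Pias2*. The ROTS test named in the study's methods was rewritten here, not run from the study's package. With this version neither was called (adjusted p = 0.24 and 0.33), where it called 785 of all 13434 genes.

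The other 2 ligase genes were lower in the ArKI IS without passing the test. *Pias3* was at 21.5, 26.9, 21.4, 20.996 and 24.5 CPM against 26.3, 27.6, 29.1, 23.6 and 25.5 CPM in WT, overlapping groups with a log2 difference of -0.19 (95% interval -0.36 to -0.01, adjusted p = 0.099). It passed only without ArKI IS replicate 2 (-0.25, adjusted p = 0.032). *Pias4* differed by -0.18 (-0.42 to 0.05, adjusted p = 0.25). The intervals were -0.18 to 0.01 for *Sumo3*, -0.07 to 0.16 for *Sae1*, -0.08 to 0.15 for *Uba2* and -0.12 to 0.10 for *Senp3*, all on the log2 scale and all spanning 0.

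In the caput, *Pias1* and *Pias3* rose, again 2 of 8, both higher, where 27.7% of all 13726 genes tested were called. The median size of the difference was 0.09 over the 8 genes and 0.14 over all genes. *Pias1* was at 157, 122, 138, 136 and 150.4 CPM in the ArKI caput and at 102, 103, 96.5, 96.1 and 108 CPM in the WT caput. The groups did not overlap. The lowest ArKI value belongs to replicate 2, the shallowest library. The log2 difference was 0.47 ± 0.06 (1.38-fold; adjusted p = 1.4e-05), and between 0.42 and 0.51 with a sample left out. By the ROTS test, which called 800 of all 13726 genes, its adjusted p was 0.16.

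*Pias3*, first known as an inhibitor of STAT3, was at 27.6, 21.6, 25.5, 29.9 and 25.9 CPM in the ArKI caput and at 21.6, 24.7, 22.4, 21.01 and 22.2 CPM in the WT caput. A total of 4 ArKI samples were above every WT sample and ArKI replicate 2 lay within the WT range, so that the groups overlapped. The log2 difference was 0.22 ± 0.08 (1.17-fold; adjusted p = 0.042). The call was lost by DESeq2 (adjusted p = 0.064), by the ROTS test (0.40), with the replicate number as a block (0.081), and without any of WT replicates 1, 3, 4 and 5 or ArKI replicates 1, 4 and 5, with differences from 0.17 to 0.24 and adjusted p from 0.055 to 0.13.

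Of the other caput values, *Pias4* was at 15.2, 15.6, 13.8, 17.3 and 14.9 CPM in ArKI and at 17.7, 19.4, 17.1, 16.9 and 16.6 CPM in WT, a log2 difference of -0.20 (95% interval -0.38 to -0.03, adjusted p = 0.083). *Pias4* passed without ArKI caput replicate 4 (-0.25, adjusted p = 0.044). *Sumo3* differed by 0.11 (0.01 to 0.21, adjusted p = 0.095), and passed without ArKI caput replicate 1 (0.14, adjusted p = 0.045), with library size as the only scaling (0.15, adjusted p = 0.026) and with all 26 samples in one fit (0.12, adjusted p = 0.048). *Pias2*, called in the IS, was at 66.5 to 70.4 CPM in ArKI and at 63.4 to 70.5 CPM in WT in the caput, a difference of 0.03 (-0.07 to 0.13, adjusted p = 0.72). *Sae1* (-0.22 to 0.18), *Uba2* (-0.17 to 0.05) and *Senp3* (-0.15 to 0.09) had intervals around 0.

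In the testis none of the 8 genes passed edgeR's test, where 1.96% of all 15838 genes were called. None of the 8 had an unadjusted p below 0.05, and none was called by DESeq2 or limma-voom. The ROTS test called 0 of all 15838 genes there, so it says nothing about the 8. *Pias1* was at 257, 276 and 268 CPM in ArKI and at 245, 283 and 264 CPM in WT, and *Pias2* at 658, 715 and 717 CPM against 677, 717 and 733 CPM. The log2 differences were -0.01 (95% interval -0.14 to 0.12) for *Pias1* and -0.05 (-0.17 to 0.07) for *Pias2*. *Sumo3* was at 0.03, *Sae1* at 0.01, *Uba2* at -0.04, *Pias4* at -0.08 and *Senp3* at -0.01. Across the 8 genes the difference furthest from 0 was that of *Pias3*, -0.17 (-0.43 to 0.09, adjusted p = 0.62), which also had the lowest counts, 104 to 150.0 per sample.

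**Figure D3:**
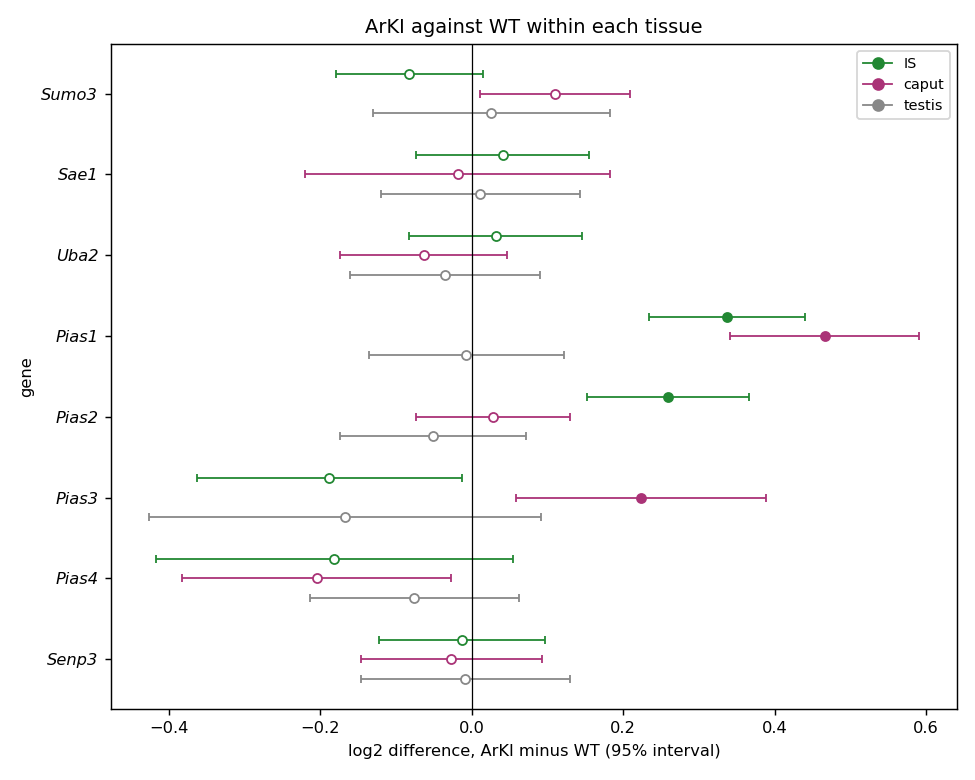
Log2 difference between ArKI and WT (horizontal axis) with its 95% interval for each of the 8 genes (vertical axis) in the IS (green), the caput (purple) and the testis (grey); filled circles were called at an adjusted p below 0.05. *Pias1* is filled in both epididymal segments, at 0.34 and 0.47, *Pias2* only in the IS and *Pias3* only in the caput, and no testis point is filled.

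Whether the genotype difference itself depended on the tissue was tested with interaction terms. Between caput and IS, 3 of 8 genes were called, where 15.1% of all 14329 genes were. *Pias3* changed by 0.41 ± 0.11 more on the log2 scale in the caput than in the IS (adjusted p = 0.015), *Pias2* by -0.23 ± 0.07 (adjusted p = 0.018) and *Sumo3* by 0.19 ± 0.06 (adjusted p = 0.043). *Pias3* kept its call in every fit with a sample left out (0.35 to 0.46). *Pias2* lost it without ArKI IS replicate 3 (-0.19, adjusted p = 0.055). *Sumo3* lost it in 16 of the 20 such fits (0.16 to 0.21, highest adjusted p = 0.11), with RLE factors (adjusted p = 0.05037) and upper-quartile factors (0.052), with every gene of at least 1 count (0.098) and with the replicate number as a block (0.061). For *Pias1* the interaction was 0.13 (-0.03 to 0.28, adjusted p = 0.29), so no difference between its rises in the 2 segments was shown. The values of *Sae1* (-0.06), *Uba2* (-0.10), *Pias4* (-0.03) and *Senp3* (-0.02) did not pass the test.

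Between testis and IS, the genotype difference of 2 of 8 genes was called (11.8% of all genes): it was lower in the testis by -0.31 ± 0.09 for *Pias1* (adjusted p = 0.021) and by -0.28 ± 0.08 for *Pias2* (adjusted p = 0.014). Without WT testis replicate 2 the value for *Pias1* was -0.26 (adjusted p = 0.079). Between testis and caput 1 of 8 was called (14.0% of all genes), *Pias1* with -0.46 ± 0.09 (adjusted p = 0.00038). *Pias3* stood at -0.38 (-0.67 to -0.08, adjusted p = 0.084) and passed without ArKI caput replicate 2 (-0.41, adjusted p = 0.043). The others did not pass the test. Between testis and IS these were *Sumo3* (0.14), *Sae1* (0.0019), *Uba2* (-0.04), *Pias3* (0.05), *Pias4* (0.14) and *Senp3* (0.04), and between testis and caput *Sumo3* (-0.07), *Sae1* (0.04), *Uba2* (0.04), *Pias2* (-0.06), *Pias4* (0.14) and *Senp3* (0.03).

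Markers of other cells moved with genotype beside these values. In the IS the summed level of 12 late spermatid and sperm genes was 11.8 to 77.5 CPM in WT and 2.40 to 6.41 CPM in ArKI, and both of the 2 that passed the filter fell. All 5 smooth muscle genes fell there, with summed levels of 514 to 598 CPM in WT and 225 to 399 CPM in ArKI. In the caput the sperm genes summed to 239.7 to 377 CPM in WT and 36.5 to 100.4 CPM in ArKI, 10 of 10 tested falling, and 3 of 6 immune genes rose, the 7 listed summing to 159.8 to 204 CPM in WT and 249 to 405 CPM in ArKI. In the IS 2 of 7 immune genes rose and 1 fell, 237 to 341 CPM against 357 to 539.9 CPM. Of 9 principal cell genes, 2 rose and 4 fell in the IS and 1 rose and 1 fell in the caput. Of 3 basal cell genes, 2 fell in the IS and 0 changed in the caput. Markers of Sertoli cells (2 of 3 rose and 1 fell in the IS, 1 of 4 rose and 2 fell in the caput) and Leydig cells (1 of 3 rose in the IS and 1 of 2 in the caput) were also partly called. In the testis 2 of 6 Leydig, 1 of 7 immune and 1 of 5 smooth muscle genes rose and 1 of 8 principal cell genes fell. Among 5 spermatocyte genes none could be tested in the epididymis, *Sycp1* and *Piwil1* were at 0 in every ArKI IS sample, and *Sycp1* in every ArKI caput sample. The part of these cells in the changes of the ligase genes was not tested.

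The 4 PIAS genes can also be read as a set of ligases. Their summed level was 46.7 ± 1.19 CPM per kilobase in the WT IS and 51.9 ± 1.57 in the ArKI IS, 51.3 ± 1.39 and 59.3 ± 3.51 in the caput (SD, n = 5 in each), and 314 ± 14.4 and 309 ± 9.94 in the testis (SD, n = 3 in each). In the epididymis every ArKI sample (49.5 to 53.8 in the IS, 53.9 to 63.1 in the caput) was above every WT sample of its segment (45.1 to 48.3 and 49.4 to 53.0). The testis held several times more PIAS mRNA than either segment, and in it the groups overlapped.

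*Pias2* made up 44.7% ± 1.35 of the PIAS level in the WT IS and 47.99% ± 2.42 in the ArKI IS, 37.1% ± 1.78 and 33.1% ± 1.40 in the caput, and 64.2% ± 0.79 in the WT testis. *Pias1* made up 24.5% ± 1.52 in the WT IS and 27.7% ± 0.58 in the ArKI IS, and 35.4% ± 0.98 and 42.6% ± 1.89 in the caput, where it was the largest share in ArKI. *Pias3* was 18.4% ± 1.32 in the WT IS, 14.4% ± 1.28 in the ArKI IS, 14.2% ± 0.86 in the WT caput, 14.3% ± 1.15 in the ArKI caput and 1.02% ± 0.10 in the WT testis. *Pias4* was 12.5% ± 1.25 and 9.92% ± 1.58 in the IS of WT and ArKI, 13.3% ± 0.85 and 10.1% ± 1.008 in the caput and 19.7% ± 0.30 in the WT testis. The testis shares of WT and ArKI differed by less than the larger of the 2 SDs for each of the 4. With the shortest transcript in place of all exons, *Pias2* was the largest share in every group, 44.8% in the ArKI caput against 34.1% for *Pias1*.

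**Figure D4:**
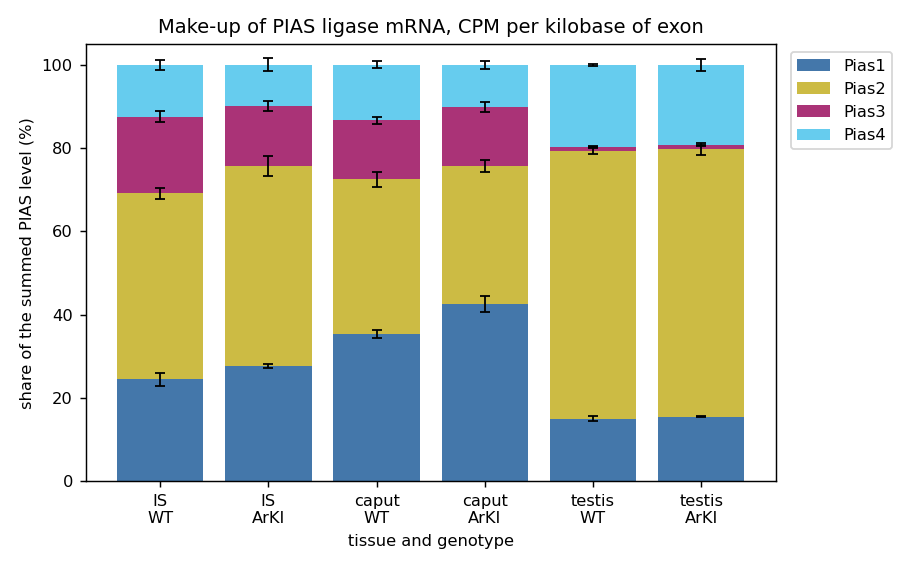
Share of each PIAS gene in the summed PIAS level in percent (vertical axis, from 0), computed from CPM per kilobase of exon, for the 6 groups (horizontal axis); stacked bars are group means and error bars the SD over samples. *Pias1* has its smallest epididymal share, 24.5%, in the WT IS and its largest, 42.6%, in the ArKI caput, and *Pias3* shrinks to 1.02% in the WT testis.

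Within ArKI mice the tissue differences were tested in a fit that shares no sample with the WT fit. Between testis and IS 7 of 8 genes were called (90.6% of all 16508 genes), between testis and caput 8 of 8 (91.3%), and between caput and IS 4 of 8 (57.0%). Against the IS, the testis again had more of the ligase genes *Pias4* (3.55 ± 0.09), *Pias2* (3.01 ± 0.06) and *Pias1* (1.75 ± 0.07), and less of *Pias3* (-1.35 ± 0.11) and *Sumo3* (-1.20 ± 0.06). *Uba2* was at 0.80 ± 0.07 and *Senp3* at 0.65 ± 0.07, both higher in the testis. Against the caput, *Pias2* (3.36 ± 0.06), *Pias4* (3.34 ± 0.09), *Pias1* (0.94 ± 0.06), *Sae1* (0.92 ± 0.09), *Uba2* (0.60 ± 0.07) and *Senp3* (0.51 ± 0.06) were higher and *Pias3* (-1.53 ± 0.11) and *Sumo3* (-1.12 ± 0.06) lower. *Sae1*, at 112 to 119.5 CPM in the testis and 99.8 to 114 CPM in the IS, was not called (0.15, -0.03 to 0.33, adjusted p = 0.12), but its call and sign rest on the settings. It was called higher with RLE factors (0.34), by DESeq2 (0.34), with at least 10 counts in every sample (0.36), with only the 2 groups compared (0.17) and with the replicate block (0.18). It was called lower with library size only (-0.23, adjusted p = 0.017) and with upper-quartile factors (-0.29, adjusted p = 0.0054). Upper-quartile factors also took *Senp3* between testis and caput to 0.08 (adjusted p = 0.26) and *Uba2* to 0.17 (adjusted p = 0.025). They took *Pias1* to 0.51 and *Sae1* to 0.49 there, and between testis and IS *Uba2* to 0.36 and *Senp3* to 0.21.

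Between ArKI caput and ArKI IS, *Pias1* rose by 0.81 ± 0.06 and *Uba2* by 0.19 ± 0.06, and *Sae1* and *Pias2* fell by 0.78 and 0.36 on the log2 scale. *Uba2* was not called without ArKI caput replicate 5 (0.15, adjusted p = 0.06). *Sumo3*, *Pias3*, *Pias4* and *Senp3*, called between the WT segments, were not called here, with adjusted p of 0.22, 0.094, 0.078 and 0.071. *Pias4* was at 0.21 in ArKI and 0.23 in WT, and *Senp3* at 0.13 and 0.15, and their interactions were -0.03 and -0.02 (adjusted p = 0.94 and 0.93), so no genotype difference is shown for them. *Sumo3* was at -0.08 in ArKI and -0.27 in WT. *Pias3* was at 0.18 in ArKI and at -0.23 in WT. *Pias3* passed without ArKI IS replicate 2 (0.24) or ArKI caput replicate 2 (0.22), *Senp3* without ArKI caput replicate 2 (0.16) and *Pias4* without ArKI IS replicate 4 (0.26) or ArKI caput replicate 3 (0.25). With all 26 samples in one fit, *Pias4* (0.22) and *Senp3* (0.14) passed, and *Pias4* also with the replicate block (0.21).

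The rest of the pathway was read from a list of 25 other genes, of which 24 passed the filter in each comparison. The exception was *Sumo2*, a close relative of *Sumo3*, with 0 to 10 counts per sample. The authors counted uniquely mapped reads only. Whether this lowered the counts of *Sumo2* was not tested, and no level is read from its row.

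In the IS, 1 of the 24 genes rose and 1 fell with the ArKI genotype, where 29.6% of all genes were called, so the list had a smaller share of calls than all genes. *Desi1*, a protease that removes SUMO, was at 52.7 to 56.8 CPM (median 55.4) in WT and at 40.3 to 45.6 CPM (median 41.7) in ArKI. The groups did not overlap, and the log2 difference was -0.37 ± 0.05 (0.78-fold; adjusted p = 2.9e-05). *Zmiz1*, which encodes a PIAS-like protein and coactivator of the androgen receptor, was at 168 to 199 CPM in WT and at 193 to 226 CPM in ArKI and rose by 0.20 ± 0.06 (adjusted p = 0.0084). In the caput 3 rose and 3 fell, a share near the 27.7% of all genes, and 5 of them are described here. *Pml*, the organiser of PML nuclear bodies, rose by 0.28 ± 0.06 (adjusted p = 0.0029), *Desi2* by 0.23 ± 0.07 (adjusted p = 0.018) and the ligase gene *Trim28* by 0.20 ± 0.05 (adjusted p = 0.0046). *Nsmce2*, the ligase of the SMC5/6 complex, fell from 24.6 to 31.8 CPM in WT to 20.4 to 23.3 CPM in ArKI, a log2 difference of -0.38 ± 0.08 (adjusted p = 0.0017). *Rwdd3*, at 20 to 80 counts per caput sample, was at -0.47 ± 0.15 (adjusted p = 0.03). In the testis none of the 24 was called by edgeR, where 1.96% of all genes were.

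**Figure D5:**
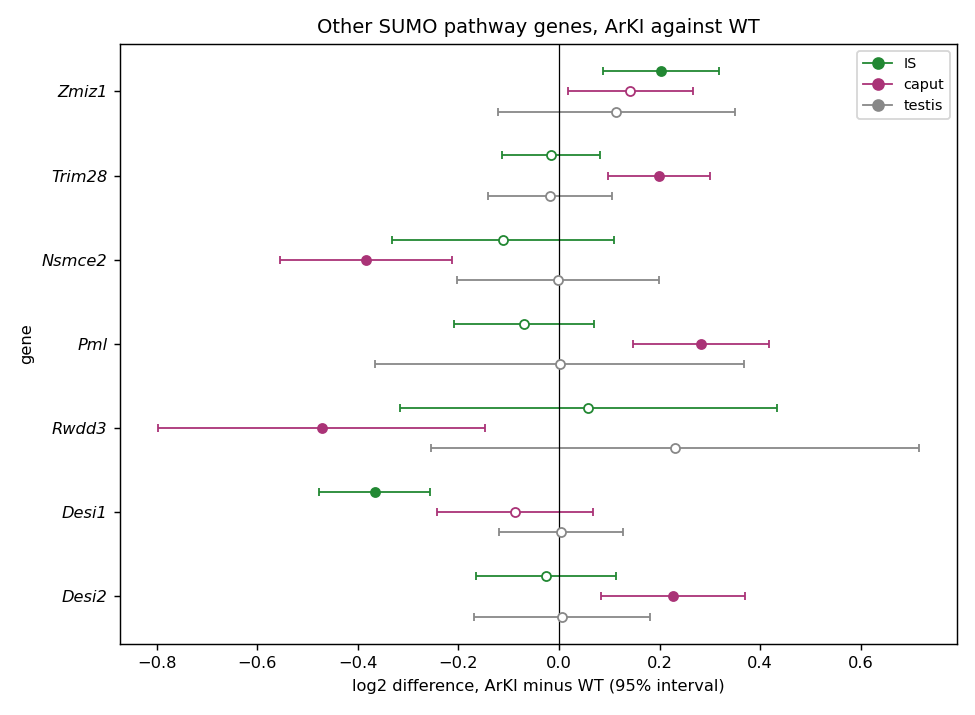
Log2 difference between ArKI and WT (horizontal axis) with its 95% interval for 7 other SUMO pathway genes that were called in the IS or the caput (vertical axis), shown in the IS (green), caput (purple) and testis (grey); filled circles were called at an adjusted p below 0.05. *Desi1* and *Zmiz1* are filled in the IS and the other 5 in the caput, with no gene filled in both segments.

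The interaction between caput and IS was called for 3 of the 24, a share near the 15.1% of all genes, all higher in the caput: *Pml* with 0.35 ± 0.09 (adjusted p = 0.0083), *Desi1* with 0.28 ± 0.09 (adjusted p = 0.036) and *Trim28* with 0.21 ± 0.06 (adjusted p = 0.023). Between testis and IS, the genotype difference of 1 of the 24, *Desi1*, was called (11.8% of all genes), at 0.40 ± 0.09 (adjusted p = 0.0041). In 12 related activating and conjugating enzyme genes of ubiquitin and other ubiquitin-like proteins, 0 were called by genotype in the IS (29.6% of all genes), 1 higher and 1 lower in the caput (27.7%) and 0 in the testis (1.96%).

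Between WT testis and WT IS, 13 of the 24 pathway genes were higher and 7 lower, and between WT testis and WT caput 16 higher and 8 lower, where 91.9% and 92.0% of all genes were called, so these counts show nothing particular to the pathway. The largest rises against the IS were those of *Zfp451*, a ligase gene, from 18.4 to 21.7 CPM in the IS to 600.5 to 660.0 CPM in the testis (log2 difference 5.10 ± 0.06), of *Desi1* (3.43 ± 0.06) and of *Rangap1* (3.34 ± 0.05), the gene of a classical SUMO target. The largest falls were those of *Zmiz1* (-2.68 ± 0.11) and *Pml* (-2.63 ± 0.12). Against the caput, *Zfp451* (5.18 ± 0.06), *Desi1* (3.98 ± 0.06) and *Rangap1* (3.17 ± 0.05) led the rises and *Zmiz1* (-2.68 ± 0.11), *Pml* (-2.26 ± 0.12) and *Rwdd3* (-1.78 ± 0.20) the falls. Between WT caput and WT IS 4 were higher and 8 lower (64.4% of all genes were called), from -0.80 ± 0.07 for *Desi2*, -0.55 ± 0.06 for *Desi1* and -0.53 ± 0.06 for *Senp1* to 0.46 ± 0.09 for *Nsmce2* and 0.66 ± 0.16 for *Rwdd3*. *Rangap1* stood at 0.17 ± 0.05.

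For each of the 8 genes, the genes with the most similar profile over the 6 group means were sought among 16871 genes, by the root mean square difference of log2 CPM after centring. *Pias2* was nearest to *Efcab2* (0.03), where the median over all genes was 1.66. The next, *Tfr2* (0.04), was at group means of 0.03 to 0.18 CPM in the epididymis, under the pseudocount of 0.5, so its profile is set by that pseudocount and its likeness to *Pias2* is not informative. *Pias4* was nearest to *Lpcat4* (0.04) and *Poll* (0.06). *Sumo3* was nearest to *Copb1* and *Edem1* (0.03 each), *Uba2* to *Ewsr1* and *Xab2* (0.03 each) and *Sae1* to *Usp46* and *Prdm4* (0.05 each). *Pias3* was nearest to *Tln1* and *Zfp282* (0.07 each) and *Senp3* to *2810021B07Rik* and *Cdk11b* (0.02 each). *Pias1* had the least close neighbours of the 8, *Pstpip2* (0.10), with a mean of only 0.76 CPM in the WT IS, and *AI414108* (0.11). These 6 means are few points, and testis and epididymis differ in sequencing batch as well as tissue.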

How the data were processed

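RNA of the IS, the caput and the testis was sequenced in 26 samples, grouped by the tissue and genotype in their labels. Per the paper, the authors aligned the reads with STAR, and the deposited values are raw counts of uniquely mapped reads per RefSeq gene. The submitters' processing notes name mm10, Subread 1.5.1 and bcl2fastq 1.8.4. The labels and the methods name different library kits, and whether strand was used in counting is not given in the sources used here, so reads of overlapping genes on opposite strands may be mixed. Each sample had 4125768 to 21376604 counts, and p-values measure the spread between the samples, one per mouse and tissue.

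Genes were filtered by filterByExpr at its defaults (minimum count 10, total 15), scaled by TMM and tested by edgeR 4.0.16 in R 4.3.3 (robust quasi-likelihood, Benjamini-Hochberg), each genotype comparison within its tissue, each set of tissue comparisons within a genotype, and interactions over 20 or 26 samples. Intervals are 95%. CPM used TMM factors over all 26 samples, and exon lengths came from GENCODE vM21. Profiles were compared on log2 of CPM plus 0.5. Alternatives were DESeq2 1.42.0, limma 3.58.1 (voom), ROTS rewritten with 100 resampled data sets, RLE, library-size and upper-quartile scaling, other filters and thresholds, the replicate block, other sets of samples and each sample left out. The fits were tested on simulated data, and figures were drawn with matplotlib 3.10.9.

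The text names all 8 genes in every comparison, the other pathway genes called by genotype and the 3 largest called differences in each direction between WT tissues (less the items not reported), and the 2 nearest profiles. Marker lists covered late spermatids and sperm, spermatocytes, Sertoli, Leydig, principal, basal, smooth muscle and immune cells. The members and lists were chosen with earlier results of these data known. Certain items are not reported here.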

Additional observations from a re-analysis of the deposited data

Results flagged for a closer look

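In 2 of the 32 gene and group sets of 5 samples tested, 1 sample stood apart from the rest by Dixon's criterion, where chance gives about 1.6. Both belonged to WT IS replicate 2, which had the lowest *Pias1* level of its group, 58.9 CPM against 63.9 to 65.2 CPM, and the highest *Pias2* level, 79.4 CPM against 70.8 to 73.2 CPM. Without this sample the IS genotype differences of *Pias1* and *Pias2* were 0.31 and 0.28 on the log2 scale, and both were still called.

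The genotype difference depended on the tissue, by a test of the interaction, for 6 of the 24 combinations of gene and tissue pair, where 15.1% (caput and IS), 11.8% (testis and IS) and 14.0% (testis and caput) of all genes were called. Between caput and IS these were *Pias3* (0.41), *Pias2* (-0.23) and *Sumo3* (0.19). The values of *Pias3* had opposite signs in the 2 segments, -0.19 in the IS, not called, and 0.22 in the caput. Between testis and IS they were *Pias1* (-0.31) and *Pias2* (-0.28), and between testis and caput *Pias1* (-0.46). The testis libraries formed a sequencing batch of their own, with WT and ArKI both in it.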

How the results depend on the processing

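Of the 96 differences of the 8 genes, 53 were called at an adjusted p below 0.05. At that limit 39 of them kept their call in every alternative fit and with each sample left out. A further 8, not called at first, gained a call in some fit. The limits given below, an adjusted p below 0.01 and those of the study, took no part in these counts. The number of the 8 genes called in the IS was 0 by ROTS, which called 785 of all 13434 genes, 0 under the study's limits on adjusted p and fold (543 of all genes) and 2 to 3 with a sample left out. In the caput, with 13726 genes tested, it was 1 by DESeq2 (3654 of all genes), 0 by ROTS (800), 1 at an adjusted p below 0.01 (2468), 0 under the study's limits (683), 3 with library size only (3841), 3 with all 26 samples in one fit (4708 of 16879) and 1 to 2 with a sample left out. At an adjusted p below 0.01 it was 4 between WT caput and WT IS (9017 of 16402 genes), 0 for the interaction of segment and genotype (1172 of 14329) and 0 for the testis against IS genotype effect (938 of 16879). Between ArKI caput and ArKI IS it was 3 at an adjusted p below 0.01 (7783 of 16508 genes), 6 with all 26 samples in one fit (9850 of 16879) and 3 to 6 with a sample left out. With a sample left out it was 1 to 2 for the testis against IS effect and 1 to 2 for the testis against caput effect, which was 2 with library size only. The cause was not tested.

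IS and caput came from the same mice, but the labels do not say that a replicate number marks a mouse. For each gene the deviation of log2 CPM from the group mean was taken, and samples of the same number were correlated on these deviations. The correlations lay between -0.149 and 0.187, in no pair of groups all above 0.1. Between WT IS and WT caput 3 of 5 were above 0.1, and between ArKI IS and ArKI caput 1 of 5. The caput sample of the same number was the best match for 3 of 5 WT and 2 of 5 ArKI IS samples. With the replicate block, 1 of the 8 genes was called in the caput (*Pias3* lost its call, adjusted p = 0.081), where 3679 of all 13726 genes were, and 2 in the segment interaction (*Sumo3*, 0.061), where 2228 of 14329 were, and *Sae1* (ArKI testis against IS, 0.034) and *Pias4* (ArKI caput against IS, 0.046) gained one.

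Signs turned mostly for differences near 0. With library size only, upper-quartile factors or all 26 samples in one fit, *Senp3* was at 0.016 and 0.0078 in the IS (first 2 settings), *Pias1* at 0.011, 0.014 and 0.019 and *Senp3* at 0.0084, 0.012 and 0.018 in the testis. With library size only, *Sae1* was at 0.017 and *Senp3* at 0.0092 in the caput. The same setting put the genotype effect of *Senp3* at -0.0073 for testis against IS and at -0.0018 for testis against caput, and one fit of all samples put its segment interaction at 0.0051. *Sae1* between testis and IS, called in WT, turned to -0.18 and -0.26 in WT and -0.23 and -0.29 in ArKI with library size only and upper-quartile factors. Its testis against IS genotype effect was -0.027 with RLE factors, -0.042 with library size only, -0.026 with upper-quartile factors, -0.0074 with every gene of at least 1 count, -0.026 with at least 10 counts in every sample and -0.027 by DESeq2.

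With a sample left out, ranges that crossed 0 were -0.0017 to 0.074 for *Uba2* and -0.028 to 0.012 for *Senp3* in the IS, -0.10 to 0.032 for *Sae1* and -0.058 to 0.011 for *Senp3* in the caput, and -0.021 to 0.032 for *Sae1*, -0.057 to 0.035 for *Pias1* and -0.022 to 0.0039 for *Senp3* in the testis. They were -0.093 to 0.024 for *Pias4* and -0.053 to 0.013 for *Senp3* in the segment interaction, -0.040 to 0.031 for *Sae1* and -0.0062 to 0.11 for *Pias3* in the testis against IS effect, and -0.0025 to 0.13 for *Sae1* in the testis against caput effect. Depth limits *Pias3* and *Pias4* most, with as few as 101 and 73 counts in a sample.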
